A study of Sus scrofa with 220 samples.

Results

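Chromatin modifier families were followed through the early pig embryo as 73 genes that write, erase or read histone marks, oxidise methylated DNA or move nucleosomes. They are the genes whose pig symbol begins with HDAC, KDM, KMT, SETD, SMARC, CHD or BRD and a digit, PRMT, TET and a digit, EHMT, CBX or PCGF, and whose level passed 1 TPM (transcripts per 1000000, a level per length) in at least 3 of 220 cells. Of 96 such symbols in the table of pig gene names, 76 had an entry in the deposited tables and 73 passed that minimum, among 14721 genes that passed it of 22840 entries. CHD5, PRMT8 and SETD6 had an entry and did not pass. BRD1, BRD7, BRD9, CBX5, CBX6, CBX7, CBX8, CHD9, EHMT1, KDM4A, KDM5D, KMT5B, KMT5C, PCGF2, PRMT2, PRMT5, SETD1B, SMARCAL1, SMARCD2 and SMARCE1 were not analysed here, and TET2, which the study names, was not analysed here either. Genome positions are not given because the positions available are for another assembly than the one the reads were aligned to.

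The cells came from 28 embryos flushed from crossbred Large White and Landrace sows and were sequenced one by one with Smart-seq2, which reads along whole polyadenylated transcripts. The labels name no treatment. The paper inferred the sex of each cell from the summed expression of Y chromosome genes. By that reading every Sph HYPO cell was male and most LB HYPO cells were female, while LB EPI and Sph EPI held both sexes. Sex was not entered in the fits here, and its part in differences between labels was not tested. Morulae (M) gave 47 cells, early blastocysts gave 24 inner cell mass (ICM) and 28 trophectoderm (TE) cells, late blastocysts (LB) gave 25 epiblast (EPI) and 36 hypoblast (HYPO) cells, and spherical embryos (Sph) gave 48 EPI and 12 HYPO cells. TE was not collected from LB or Sph embryos, which had the TE removed by immunosurgery or had EPI and HYPO isolated by hand. For every test, counts were summed over the cells of an embryo and label, which gave 8 sums for M, 7 for ICM, 10 for TE, 4 for LB EPI, 5 for LB HYPO, 4 for Sph EPI and 3 for Sph HYPO. The embryo was read from the letters in a cell's identifier, 1 M cell could not be assigned to an embryo, and 6 of the 41 sums held a single cell. The identifiers also begin with 1 of 8 library numbers, called library sets here, and the labels do not say what these mark. Many embryos had cells both in sets 1 to 4 and in sets 5 to 8, so fits to these are not independent replicates. Counts on genes ran from 1012604 to 5696373 per cell, and between 1660326 and 2235587 as the median of a label. Levels of single genes per embryo are given as counts per 1000000 (CPM), normalized between sums with TMM, and fold changes are on the log2 scale with their standard error.

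The labels were read against marker genes. The 5 EPI markers with values were PRDM14, NODAL, SALL2, SFRP2 and DNMT3B. Their summed TPM was 295 to 1166 in LB EPI and 616 to 722 in Sph EPI, and at most 174 in any embryo of another label. The 6 TE markers summed to 18159 or more in 9 of the 10 TE embryos and to 175 in embryo E6-ER, a single cell whose M and ICM markers, at 754, were above the 51.2 to 292 of the other TE embryos. That library goes against its label on these markers, and TE values that it moved are also given without it. The TE markers did not separate TE from Sph HYPO, at 17308 to 43067, and the 5 HYPO markers did not separate LB HYPO, at 122 to 693, from M, at 163 to 480, ICM, at 53.3 to 288, or TE, at 28.1 to 322.

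Histone deacetylases remove acetyl groups that keep chromatin open, lysine and arginine methyltransferases place marks that lysine demethylases take off, and TET enzymes oxidise methylcytosine as a step towards its removal. Bromodomain and chromobox proteins bind acetylated and methylated histones, while SMARC and CHD proteins use ATP to slide or evict nucleosomes. In mammalian embryos these families are known for the resetting of parental marks before implantation and for the exit from early pluripotency.

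Most of the 73 genes were low, and a few were very high. PRMT1, HDAC2 and SMARCA5 passed 1 TPM in all 220 cells, 11 genes passed it in at least 90% of cells, and TET3, HDAC9, HDAC7 and HDAC11 passed it in under 10%. As the median over labels of the mean over embryos, the highest member of each family was PRMT1 at 807 TPM, HDAC2 at 597, SMARCA5 at 309, TET1 at 247, CHD4 at 52.7, BRD2 at 48.4, KDM5B at 47.2, PCGF6 at 28.7, SETD9 at 25.2, KMT2E at 15.6, CBX1 at 14.1 and EHMT2 at 5.98. PRMT1 places most asymmetric dimethylarginine, HDAC2 is a catalytic subunit of several corepressor complexes, and SMARCA5 is the ATPase of ISWI remodellers. CHD4 is the ATPase of the NuRD complex, BRD2 a BET bromodomain protein, KDM5B a demethylase of lysine 4 of histone H3, and EHMT2 a methyltransferase of lysine 9. The mean TPM of a gene was highest in M for 20 genes and in LB EPI for another 20, and in each of the other labels for 4 to 10.

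**Figure D1:**
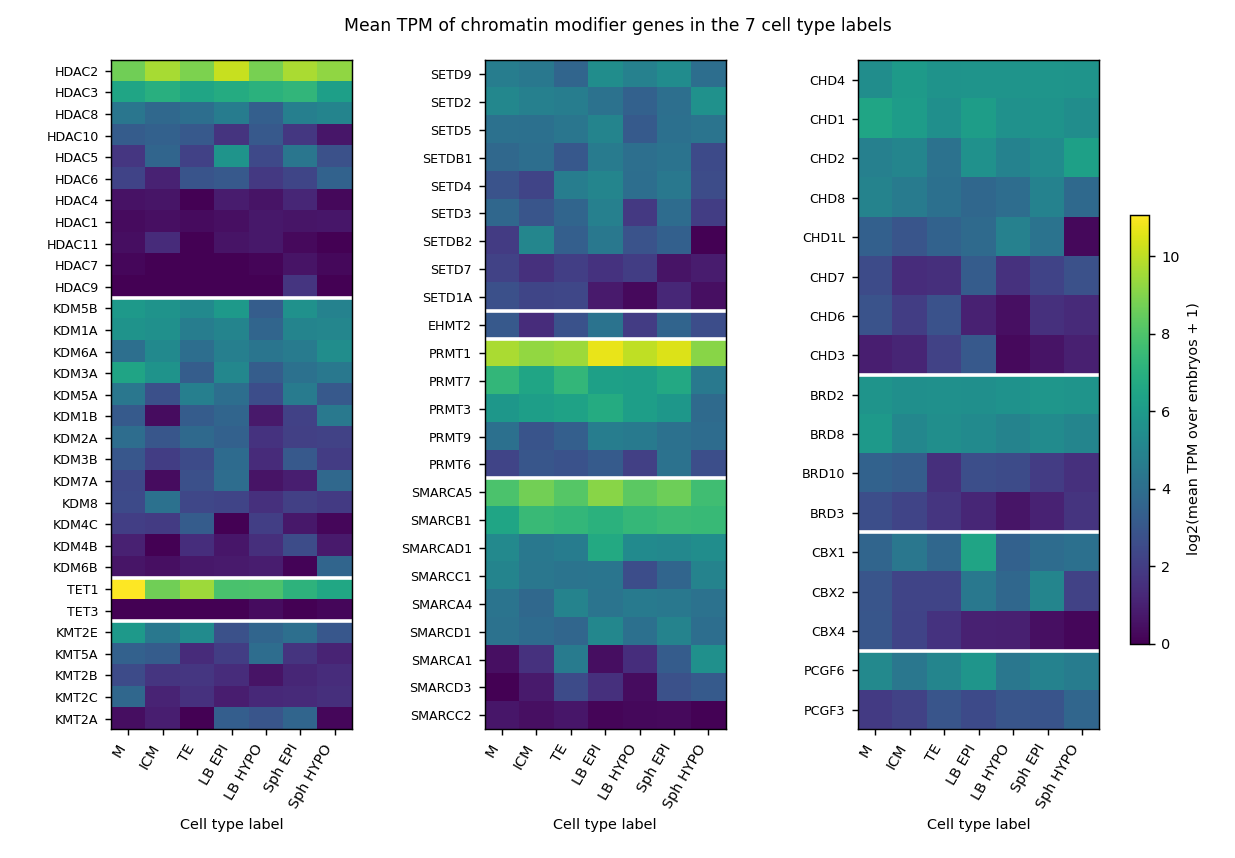
Each row is a gene of these families and each column a cell type label, and colour gives log2(mean TPM over embryos + 1). White lines separate the families, and rows within a family are in order of the median over labels. PRMT1, HDAC2, SMARCA5 and TET1 are high in most labels, and TET1 has its highest mean, 2159.6 TPM, in M.

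A cell held a median of 38 of the 73 genes above 1 TPM in M and in Sph EPI, 36 in LB EPI and in Sph HYPO, 32.5 in ICM, 30.5 in TE and 29 in LB HYPO. Embryo means ran from 31 to 46.3 in M, 32 to 40.2 in Sph EPI and 32 to 37.4 in LB EPI. In LB HYPO they were 26.5 to 30.6, below those 3 labels without overlap. The LB HYPO means overlapped with ICM, at 29.75 to 39, TE, at 20 to 43.7, and Sph HYPO, at 27.5 to 39.4. The median gene passed 1 TPM in 54.2% of Sph EPI cells, 48.9% of M cells, 44% of LB EPI cells, 41.7% of Sph HYPO cells, 37.5% of ICM cells, 32.1% of TE cells and 30.6% of LB HYPO cells. Over all 14721 genes the median was 17.9 to 29.2%. The percentage of genes seen in over 50% of cells gave another order: it was higher among the members in 5 labels, and 26.03% against 27.8% of all genes in TE and 31.5% against 31.9% in LB HYPO. No test was made of these shares, thinning each cell to 1000000 counts moved only the median of TE, to 28.6%, and without embryo E6-ER that median was 29.6%.

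The number of genes that edgeR called was set beside the share it called among all genes. Over all 7 labels, 11 of the 73 were called (15.1%), against 37.7% of all genes. Simulated counts gave many false calls among genes with no count in a label, so p-values were also adjusted over the 8994 genes with a count in every label, and 6 of 64 members passed (9.38%) against 11.9%: TET1, PRMT1, HDAC2, CBX1, SMARCA5 and KDM3A. M and ICM against LB and Sph EPI called 10 of 73 (13.7%) against 21.8% of all genes, with 3 higher in M and ICM (background 7.4%) and 7 higher in EPI (background 14.3%). M against ICM called 2 (2.74%, background 2.45%), ICM against LB EPI 3 (4.11%, background 2.91%), LB EPI against LB HYPO 1 (1.37%, background 1.92%) and LB EPI against Sph EPI 1 (1.37%, background 0.156%). ICM against TE called 0 (background 0.754%), Sph EPI against Sph HYPO 0 (background 1.13%), and the difference between stages in EPI against HYPO 0 (background 0.0408%). The members' share was under the background over all 7 labels and in M and ICM against EPI. Over all 7 labels that gap narrowed to 9.38% against 11.9% among genes with a count in every label, which 64 of the 73 members had. In LB EPI against LB HYPO the members' share was also lower, but rested on 1 gene. The comparisons with 0 members called had a background of at most 1.13%. The share was over the background in M against ICM, ICM against LB EPI and LB EPI against Sph EPI, where it rested on 1 to 3 genes. Without LB EPI embryo AQ, M and ICM against EPI called 5 members (6.85%, background 17.8%). ICM against LB EPI called 1 member without that embryo (background 1.83%), without ICM embryo AA (2.15%) or without ICM embryo AF (2.38%). At an unadjusted p under 0.05, 8 members passed in ICM against TE, 9 in Sph EPI against Sph HYPO and 8 in the difference between stages, where DESeq2 called 0, 3 and 3 and limma 1, 0 and 0.

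**Figure D2:**
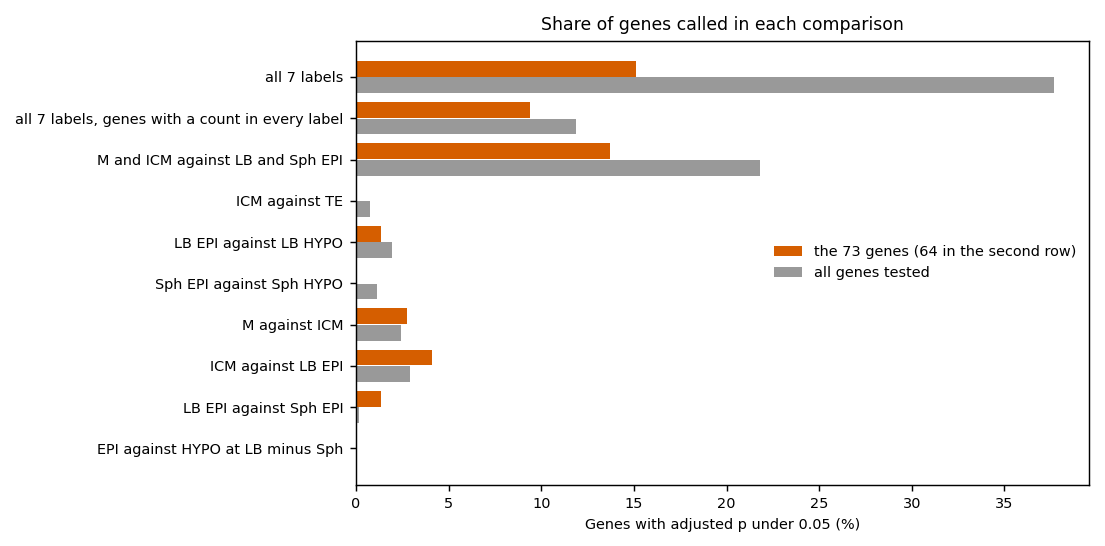
Bars give the percentage of genes with an adjusted p under 0.05 in each comparison, in orange for the chromatin modifier genes and in grey for all genes tested. The orange bar is shorter over all 7 labels (15.1% against 37.7%) and in M and ICM against EPI (13.7% against 21.8%), and 0 in 3 comparisons. Among genes with a count in every label the bars over all 7 labels are closer, at 9.38% against 11.9%.

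Among the erasers of methyl marks, TET1 (ENSSSCG00000010241) was highest in M, and of the 73 genes it had the smallest p over all 7 labels (edgeR adjusted p = 0.000102). Its CPM per embryo ran from 469 to 1956 in M (median 1191), from 44.6 to 459.8 in ICM (median 263) and from 124 to 895 in TE (median 348, and 162 to 895 without embryo E6-ER). In LB EPI the 4 embryos had 112, 97.7, 77.7 and 214, and in Sph EPI 108, 129.7, 3.95 and 120.0. LB HYPO embryos had 59.2, 291, 0.217, 255 and 165, and Sph HYPO embryos 84.9, 75.5 and 17.2. Every M embryo was above every ICM embryo and above every embryo of the EPI and HYPO labels, while TE reached into the range of M and ICM overlapped with LB EPI. TET1 was 5.18-fold higher in M than in ICM (log2 2.37 ± 0.42, edgeR adjusted p = 0.00374) and 5.03-fold higher in M and ICM than in EPI (2.33 ± 0.46, edgeR adjusted p = 0.000782). Library sets 1 to 4 alone gave 2.34 for the second difference and sets 5 to 8 gave 2.52, and for M against ICM 2.43 and 1.82, the latter with an edgeR adjusted p of 0.0793.

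TET1 was seen in most cells of each label. It passed 1 TPM in all 47 M, 24 ICM and 28 TE cells, in 24 of 25 LB EPI cells (96.0%, exact 95% interval 79.6 to 99.9%), 44 of 48 Sph EPI cells and 7 of 12 Sph HYPO cells (58.3%, 27.7 to 84.8%). These intervals, here and below, cover counting error only. Mean TPM was 2159.6 ± 1022 (SD, n = 8) in M, 410.03 ± 262 (n = 7) in ICM and 141 ± 95.5 (n = 4) in Sph EPI. The ratio of counts to TPM gives a TET1 gene model 0.531 times as long as that of the median gene, and its TPM refers to that model. TET3, the oxidase known from the zygote, was close to absent: it passed 1 TPM in 3 of 220 cells, 2 of 36 in LB HYPO and 1 of 12 in Sph HYPO. It had no count in ICM, TE or LB EPI, 2 counts in Sph EPI and 6 in M, and its call over all 7 labels (edgeR adjusted p = 0.00454) rested on such levels. TET3 passed the minimum for inclusion only through these HYPO cells, so that call is no separate support for a difference. It was not among the genes with a count in every label.

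KDM3A (ENSSSCG00000008221), a demethylase of lysine 9 of histone H3, was also highest in M. Its CPM was 85.9 to 628 in M (median 401), 25.2 to 539.6 in ICM (median 197) and 0 to 131 in TE (median 23.6, and 41.3 without embryo E6-ER). LB EPI embryos had 104, 210.1, 86.3 and 133 and Sph EPI embryos 127, 19.2, 67.2 and 77.5. In LB HYPO it was at 0, 55.8, 66.4, 61.1 and 0, and in Sph HYPO at 206, 18.7 and 55.4. M was the highest label, with 7 of its 8 embryos above every embryo of LB and Sph EPI, and ICM overlapped with both. KDM3A was 2.98-fold higher in M and ICM than in EPI (log2 1.57 ± 0.45, edgeR adjusted p = 0.0148), with 1.37 and 1.67 in library sets 1 to 4 and 5 to 8 and edgeR adjusted p-values of 0.145 and 0.0833 there. It was above 1 TPM in 45 of 47 M cells and in 9 of 28 TE cells (32.1%, 15.9 to 52.4%), but ICM against TE was not called (2.64 ± 0.97, edgeR adjusted p = 0.12). Without embryo E6-ER it was above 1 TPM in 9 of 27 TE cells (33.3%, 16.5 to 54.0%), and the difference was 2.48 ± 0.90 (edgeR adjusted p = 0.123). Of the related KDM4 enzymes, KDM4C was called as higher in M and ICM and KDM4B as higher in EPI. KDM4C had 1 count in all of LB EPI and KDM4B none in ICM, so no size is given for either. KDM4C was at 0 in 2 of 8 M and 4 of 7 ICM embryos, and most of the KDM4B counts of EPI came from Sph EPI embryo E, at 34.8 CPM, where the other 7 EPI embryos had at most 3.96. Without LB EPI embryo AQ or without Sph EPI embryo E, KDM4B was no longer called (edgeR adjusted p = 0.157 and 0.0811). The KDM4C call was lost without either as well (edgeR adjusted p = 0.0748 and 0.0661). Of 34 alternatives, 5 lost the KDM4B call, among them DESeq2, limma and library sets 1 to 4. For KDM4C 11 did, among them limma, sets 5 to 8 and leaving out any LB EPI embryo. The 13 KDM genes as a list had a median log2 difference of 0.13 in M and ICM against EPI, beside -0.18 over all genes.

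**Figure D3:**
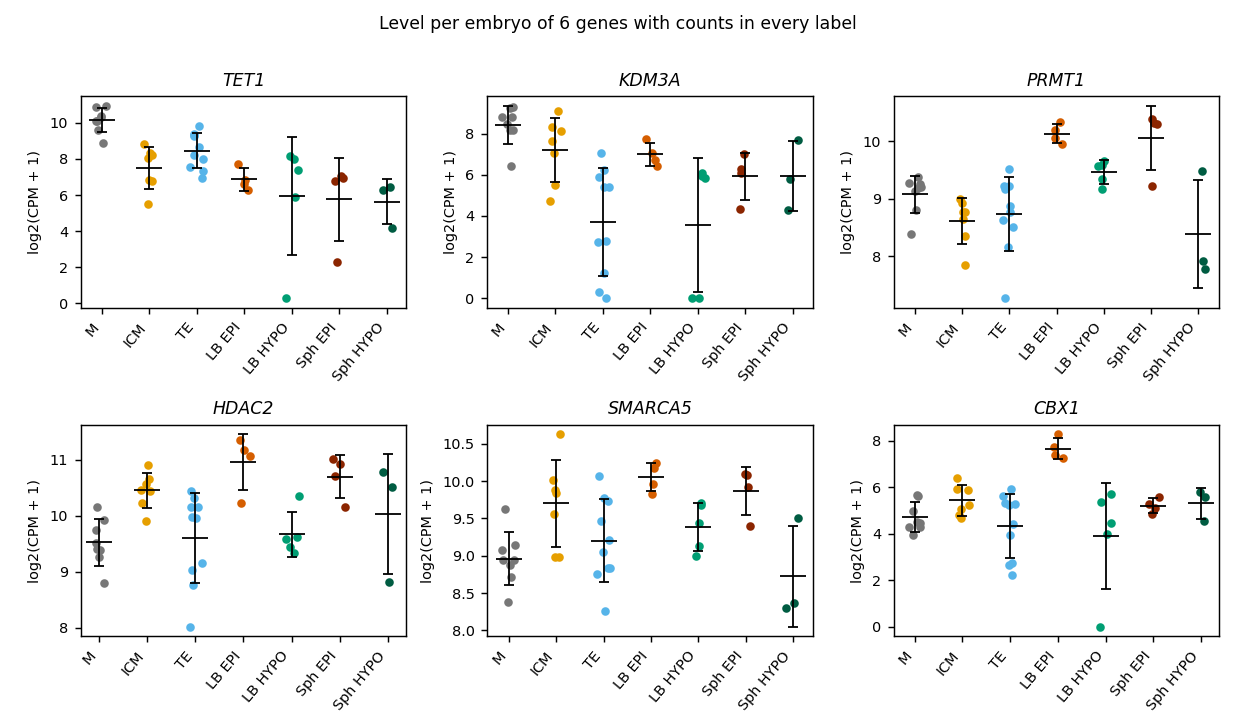
Points give log2(CPM + 1) per embryo in the 7 labels for 6 genes, and bars the mean and SD over embryos. TET1 and KDM3A are highest in M, CBX1 stands apart in LB EPI (153 to 308 CPM), and PRMT1, HDAC2 and SMARCA5 have their highest means in LB EPI.

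Of the 11 histone deacetylases, HDAC2 (ENSSSCG00000004432) was called in 3 comparisons between labels. M embryos had 446 to 1135 CPM (median 705.2), ICM embryos 960.0 to 1910.2 (median 1407) and TE embryos 259 to 1391 (median 1002). LB EPI embryos had 1202, 2598, 2311 and 2149.8, and Sph EPI embryos 1672, 1933, 1137 and 2068. LB HYPO embryos had 766, 693, 644, 784 and 1310.1, and Sph HYPO embryos 448, 1764 and 1458. M and LB HYPO were low and LB EPI was highest, with overlap between neighbouring labels, and the embryo of LB EPI with the lowest value lay below the highest LB HYPO embryo. HDAC2 was 1.96-fold lower in M than in ICM (log2 -0.97 ± 0.20, edgeR adjusted p = 0.0103), 1.80-fold lower in M and ICM than in EPI (-0.85 ± 0.16, edgeR adjusted p = 0.000559) and 2.39-fold higher in LB EPI than in LB HYPO (1.26 ± 0.27, edgeR adjusted p = 0.032). Library sets 1 to 4 and 5 to 8 gave -0.90 and -0.79 for the second of these, both called. For the first they gave -0.91 and -0.87, and the call was lost in each (edgeR adjusted p = 0.0658 and 0.2) and with all 7 labels in one model (0.0623). For the third they gave 1.10 and 1.78, again without a call (edgeR adjusted p = 0.145 and 0.0728). The LB call was also lost with the embryo as a block (1.12, edgeR adjusted p = 0.228) and in 7 of the 9 fits that left out 1 embryo.

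HDAC1, the closest relative of HDAC2 and named here outside the rule, was close to absent on this annotation. Its mean TPM was 0.262 to 0.642 over the labels, with 36 of 220 cells above 1 TPM, beside 403 to 1116 TPM for HDAC2. HDAC3, the catalytic subunit of the NCoR complex, was more even, with means of 76.0 to 157 TPM. HDAC9, a class IIa deacetylase, had counts in Sph EPI only: 3 of the 4 embryos had 6.18, 5.96 and 2.47 CPM and embryo E had 0. It passed 1 TPM in 13 of 48 Sph EPI cells (27.1%, 15.3 to 41.8%), against 0 of 25 in LB EPI, which allows a share of up to 12%, and 0 of 12 in Sph HYPO, which allows up to 25%. HDAC9 passed the minimum for inclusion only through Sph EPI cells. Its call over all 7 labels (edgeR adjusted p = 0.00521) is therefore no separate support for this pattern. DESeq2 did not make that call (adjusted p = 0.74), and HDAC9 was not among the genes with a count in every label. LB EPI against Sph EPI was not called (edgeR adjusted p = 0.344). HDAC4 and HDAC7, of the same class, did not pass over all 7 labels (edgeR adjusted p = 0.0875 and 0.0607), and HDAC7 had no count in ICM, TE or LB EPI. HDAC5, the remaining member of that class in the tables and also named outside the rule, had 49.3, 75.7, 90.1 and 102 CPM in LB EPI and 0 to 14.9 in LB HYPO without overlap, but this difference did not pass (3.61 ± 1.34, edgeR adjusted p = 0.218), while DESeq2 and limma called it.

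Of the 20 writers, only PRMT1 (ENSSSCG00000003189) was called by edgeR in a comparison between labels. It had 334 to 667 CPM in M (median 585), 230.0 to 509 in ICM (median 433) and 153 to 731 in TE (median 453), the lowest of these being embryo E6-ER. LB EPI embryos had 1289, 1173, 1069 and 989, and Sph EPI embryos 1339, 1269, 600.0 and 1275. LB HYPO embryos had 650.1, 765, 576, 809.9 and 758, and Sph HYPO embryos 219, 241 and 712.03. All 4 LB EPI embryos were above every embryo of M, ICM, TE, LB HYPO and Sph HYPO, and so were 3 of the 4 Sph EPI embryos, embryo E being the exception. PRMT1 was 2.87-fold higher in LB EPI than in ICM (log2 1.52 in size, ± 0.24, edgeR adjusted p = 0.00256) and 2.40-fold higher in EPI than in M and ICM (1.26 in size, ± 0.16, edgeR adjusted p = 3.89e-06). In library sets 1 to 4 and 5 to 8 the second difference was 1.22 and 1.37 in size, and its call held in all 34 alternatives tried. The first was 1.497 and 1.70 in size there, and its call was lost in sets 1 to 4 (edgeR adjusted p = 0.102). Against HYPO the differences were 0.63 ± 0.22 at LB (edgeR adjusted p = 0.191) and 1.53 ± 0.47 at Sph (edgeR adjusted p = 0.176), neither called.

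KMT2A, a methyltransferase of lysine 4 of histone H3, was called over all 7 labels (edgeR adjusted p = 0.0172) and passed 1 TPM most often in EPI. DESeq2 did not call it (adjusted p = 0.14), and with no count in TE it was not among the genes with a count in every label. It was at 0 in 7 of 8 M, 6 of 7 ICM and all 10 TE embryos. LB EPI embryos had 88.9, 0.0855, 17.7 and 13.1 CPM, Sph EPI embryos 37.3, 10.6, 109.9 and 13.3, and LB HYPO embryos 0, 0.88, 117, 6.23 and 0. It passed 1 TPM in 9 of 25 LB EPI cells (36%, 18 to 57.5%), 17 of 48 Sph EPI cells (35.4%, 22.2 to 50.5%), 1 of 47 M cells (2.13%, 0.0539 to 11.3%) and 0 of 28 TE cells, which allows up to 10.7%. In M and ICM against EPI it did not pass (edgeR adjusted p = 0.11). KMT2E, the most abundant KMT gene, had 61.4 ± 83.3 TPM (SD, n = 8) in M, 32.1 ± 7.26 (n = 7) without M embryo V, which had 267, and 5.68 ± 5.08 (n = 4) in LB EPI, with an edgeR adjusted p of 0.509 over all 7 labels. SETD9 and EHMT2 did not pass over all 7 labels either (edgeR adjusted p = 0.983 and 0.504).

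**Figure D4:**
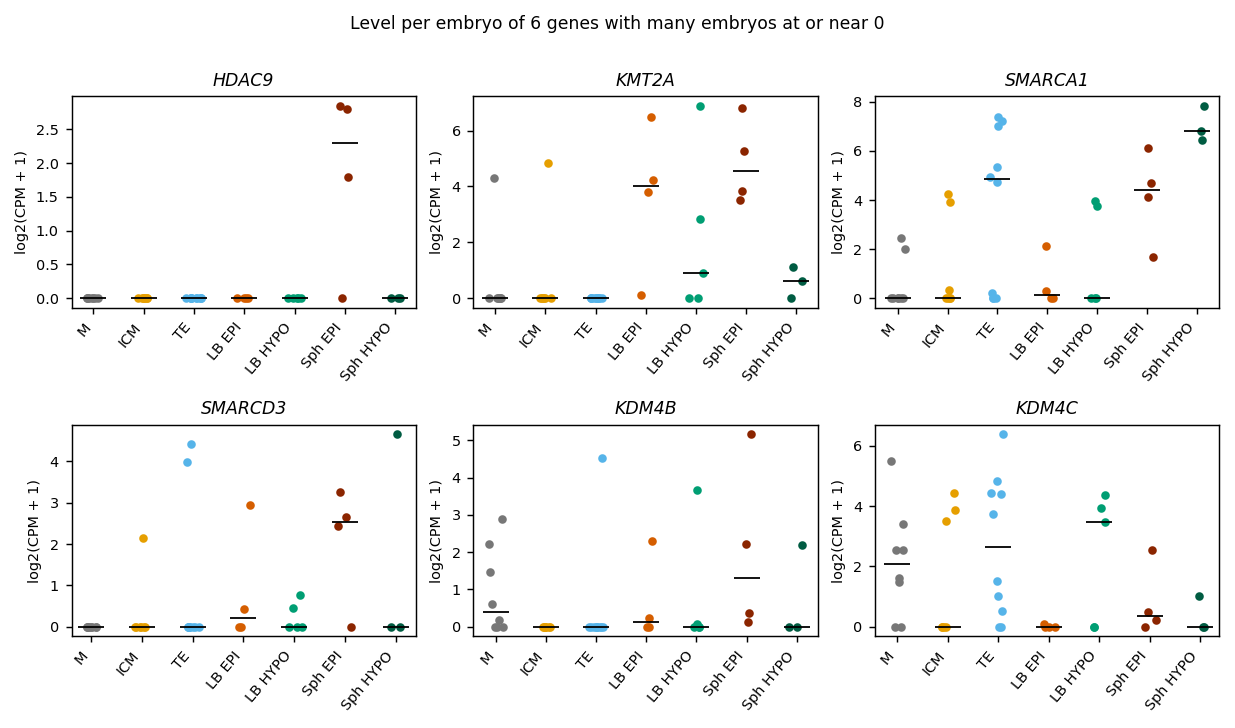
Points give log2(CPM + 1) per embryo for 6 genes with many embryos at or near 0, and the bar is the median over embryos. HDAC9 has counts in 3 of the 4 Sph EPI embryos and in no other label, and KMT2A is at 0 in all 10 TE embryos.

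Among the 17 remodellers, the 2 ISWI ATPases had different patterns. SMARCA5 (ENSSSCG00000009047) passed 1 TPM in every cell, at 331 to 791 CPM in M (median 490.1), 503.4 to 1580.2 in ICM (median 918) and 306 to 1077 in TE (median 561). LB EPI embryos had 1156, 910.4, 994 and 1210.0, Sph EPI embryos 966, 1080.4, 675 and 1089, LB HYPO embryos 832, 696, 558, 820.4 and 509 and Sph HYPO embryos 315, 329.8 and 726. LB EPI lay above M without overlap and overlapped with ICM. SMARCA5 was 1.5-fold higher in EPI than in M and ICM (log2 0.58 in size, ± 0.18, edgeR adjusted p = 0.0241), a call that ended without LB EPI embryo AQ (edgeR adjusted p = 0.0505), in library sets 1 to 4 (0.44 in size, edgeR adjusted p = 0.362) and with all 7 labels in one model (edgeR adjusted p = 0.0517). DESeq2 and limma did not call it either (adjusted p = 0.0587 and 0.0583). SMARCA1 was called over all 7 labels (edgeR adjusted p = 0.026), but not among the genes with a count in every label (edgeR adjusted p = 0.0627), in library sets 5 to 8 (0.0955) or without embryo C (0.0591). It was highest in Sph HYPO, where the 3 embryos had 227, 86.8 and 112 CPM. Sph EPI embryos had 68, 2.17, 16.3 and 24.9, TE embryos 0 to 167 (median 27.8), and M embryos 0 to 4.55 (median 0). All 3 Sph HYPO embryos were above the 4 Sph EPI embryos, but that difference did not pass (-2.35 ± 1.01 for EPI over HYPO, edgeR adjusted p = 0.307). Mean TPM of SMARCA1 was 46.7 in Sph HYPO beside 202 for SMARCA5, and 0.36 in M beside 242.

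SMARCAD1, a remodeller of the same helicase superfamily known for keeping heterochromatin through replication, was highest in LB EPI. The 4 LB EPI embryos had 238, 428, 144 and 306 CPM against 18.4 to 127 in ICM (median 67.3), without overlap, a 4.64-fold difference (log2 2.22 in size, ± 0.53, edgeR adjusted p = 0.0363). That call was lost in 12 of 21 alternatives, which include leaving out any of 7 of the 11 embryos. SMARCD3, a BAF subunit of heart and nerve progenitors, had no count in M and was called as higher in EPI. No size is given: 6 of 7 ICM embryos and 2 of 4 LB EPI embryos were at 0, and the Sph EPI embryos had 8.65, 5.29, 0 and 4.40 CPM. Single embryos outside these labels were higher: TE embryos AC and AI had 20.4 and 14.8 CPM and Sph HYPO embryo C had 24.2, with the other TE and Sph HYPO embryos at 0. The SMARCD3 call was lost without LB EPI embryo AQ (edgeR adjusted p = 0.0746), with DESeq2 and in library sets 5 to 8. CHD1, an ATPase bound to active promoters, was called over all 7 labels (edgeR adjusted p = 0.0409), with mean TPM between 90.3 ± 38.3 (SD, n = 8) in M and 42.2 ± 19.8 (n = 3) in Sph HYPO. The label ranges of CHD1 overlapped, DESeq2 did not call it, and its call was lost in 23 of 38 alternatives. CHD4 was even, with label means of 41.5 to 65.5 TPM and an edgeR adjusted p of 0.997 over all 7 labels.

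Of the 8 readers, CBX1 (ENSSSCG00000017529), an HP1 protein that binds methylated lysine 9 of histone H3, was highest in LB EPI. LB EPI embryos had 164, 153, 211 and 308 CPM, Sph EPI embryos 33, 47.4, 38.2 and 27.5, and LB HYPO embryos 39.8, 14.8, 51.4, 20.8 and 0. ICM embryos had 24.9 to 83.1 (median 36.7), M embryos 14.5 to 49.3 (median 21.1), TE embryos 3.70 to 59.4 (median 28.3, and 3.70 to 48.6 without embryo E6-ER) and Sph HYPO embryos 22.6, 46.2 and 54.8. Every LB EPI embryo was above every embryo of the other 6 labels. CBX1 was 4.62-fold higher in LB EPI than in ICM (log2 2.21 in size, ± 0.50, edgeR adjusted p = 0.0265) and 5.96-fold higher in LB EPI than in Sph EPI (2.58 ± 0.40, edgeR adjusted p = 0.0381). Library sets 1 to 4 and 5 to 8 gave 2.49 and 2.26 in size for the former and 2.26 and 2.91 for the latter, none of them called in these smaller fits. The former call was lost without ICM embryo AA or AF or LB EPI embryo AP or AQ, and the latter was lost without LB EPI embryo AP or AQ or any of the 4 Sph EPI embryos. LB EPI against LB HYPO gave 2.999 ± 1.002 and did not pass (edgeR adjusted p = 0.176), and the change of that difference to the Sph stage did not pass either (3.24 ± 1.37, edgeR adjusted p = 0.392). In M and ICM against the mean of both EPI labels CBX1 was 2.47-fold lower (-1.30 ± 0.34, edgeR adjusted p = 0.00773), although Sph EPI lay within the range of M and ICM. That call was lost in library sets 1 to 4 and 5 to 8 (edgeR adjusted p = 0.0663 and 0.059) and with all 7 labels in one model (0.104).

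CBX2, a chromobox subunit of Polycomb repressive complex 1, was called as 5.21-fold higher in EPI than in M and ICM (log2 2.38 in size, ± 0.86, edgeR adjusted p = 0.0491). Its CPM was 0.959 to 31.8 in M (median 18.1), 0 to 28.9 in ICM (median 0.0902), 13.9, 52.8, 45.4 and 92.2 in LB EPI and 57.2, 106, 86.1 and 53.7 in Sph EPI. All 4 Sph EPI embryos were above M and ICM, and 1 LB EPI embryo fell within their range. The adjusted p was close to the threshold, and the call was lost in 22 of 34 alternatives. BRD2 had label means of 44.6 to 55.5 TPM, but the TE mean was 28.3 ± 14.1 (SD, n = 9) without embryo E6-ER, which had 206 TPM. Neither of the 2 PCGF genes, the ring finger partners of Polycomb repressive complex 1, was called in any comparison.

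**Figure D5:**
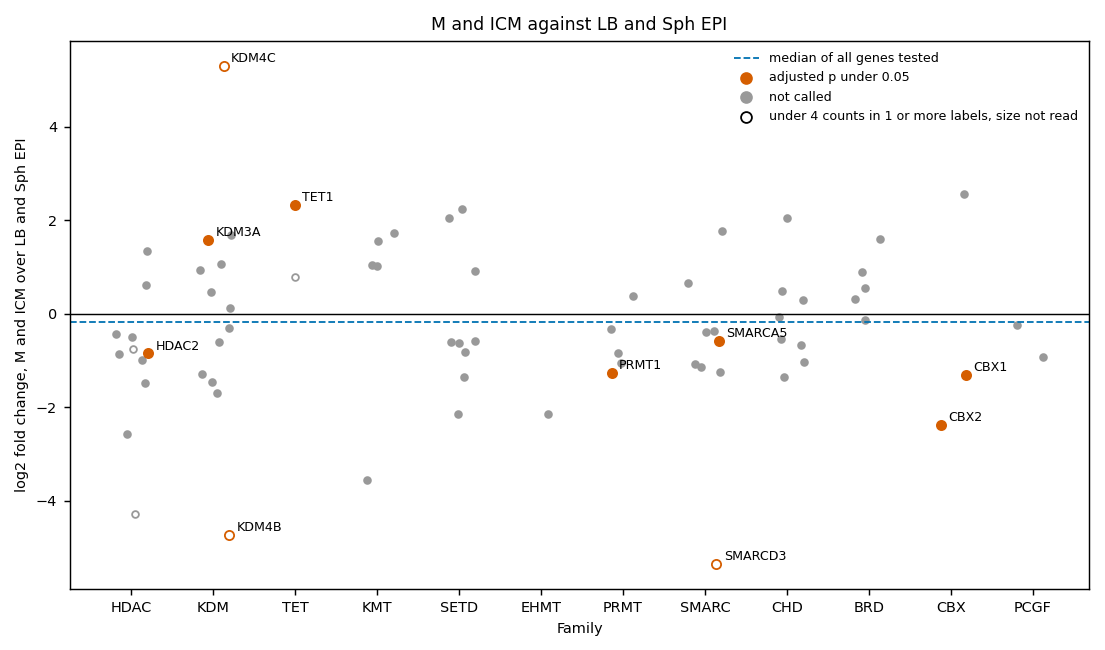
Each point is a gene, placed by family, with its log2 fold change of M and ICM over LB and Sph EPI on the vertical axis. Orange points have an adjusted p under 0.05, open points have under 4 counts in 1 or more of the 4 labels and their size is not read, and the dashed line is the median of all genes. TET1, KDM3A and KDM4C are the called genes above 0, and the other 7 called genes are below it.

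As a group, the 73 genes had a median log2 difference of -0.43 in M and ICM against EPI, beside -0.18 over all genes. The fitted level was higher in M and ICM for 29 of the 73 and in EPI for 44. Over all genes it was higher in M and ICM for 6581 of 14721, so a lean towards EPI was not particular to the members. Of all genes, 21.8% were called in that comparison, 7.4% as higher in M and ICM and 14.3% as higher in EPI. Beside this, 4 of 15 erasers of methyl marks were called, 3 of them as higher in M and ICM. Of these 4, KDM4C and KDM4B rested on labels almost without counts, and each call was lost on leaving out single embryos. Called as higher in EPI were 1 of 11 erasers of acetyl marks, 1 of 20 writers, 2 of 17 remodellers and 2 of 8 readers. In ICM against TE the median over the 73 genes was 0.02, beside 0.00 over all genes, and ICM against TE also called 0 without embryo E6-ER (background 1.25%). In LB EPI against LB HYPO it was 0.51 beside 0.00, and in Sph EPI against Sph HYPO 0.43 beside 0.57, or 0.29 with genes at 0 in a label set to their bound. Leaving out Sph HYPO embryo F, which holds 8 of the 12 Sph HYPO cells, brought the Sph count from 0 to 6 (8.22%), with PRMT1 and SMARCA5 among the 6, and the share called of all genes from 1.13 to 3.96%.

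Of 71 genes that work beside these families and were tested as lists, 21 were called in M and ICM against EPI (background 21.8%), 15 of them higher in EPI, and their median log2 difference was -0.14. DNA methylation genes made up 5 of these: the de novo methyltransferases DNMT3A and DNMT3B, UHRF1, HELLS and TDG were each called as higher in EPI. UHRF1 passed 1 TPM in only 22 cells over all labels, so its call rests on few cells and no size is given. HELLS, a helicase needed for DNA methylation, was also called in LB EPI against LB HYPO (log2 4.46 ± 0.69, edgeR adjusted p = 0.00567) and in Sph EPI against Sph HYPO (3.26 ± 0.61, edgeR adjusted p = 0.03). In M and ICM against EPI, 10 genes of Polycomb repressive complex 2 were tested. EZH2, EED, SUZ12 and AEBP2 were the 4 called as higher in M and ICM, and MTF2 and PHF19 the 2 called as higher in EPI. PHF19 was close to absent, above 1 TPM in only 4 cells over all labels, and no size is given for its call. Partners of Polycomb repressive complex 1 had 1 and 3 of 8, with RYBP higher in M and ICM and RNF2, PHC1 and L3MBTL2 higher in EPI. Of the histone acetyltransferases, which act against the deacetylases, KAT7 and HAT1 of 8 were called, both higher in EPI (KAT7 2.14 in size, ± 0.35, edgeR adjusted p = 0.00011). BAF partners had ARID1B of 11 and NuRD partners MTA3 of 6 higher in EPI, other methyltransferases and partners had DPY30 higher in EPI and PRDM2 higher in M and ICM of 16, and none of the 5 sirtuins was called.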

How the data were processed

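Single pig embryo cells were sequenced with Smart-seq2. Per the study's methods, adaptors and low-quality ends were cut by scythe and sickle, and HISAT2 2.1.0 placed the reads on the pig genome (build 10.2). The authors counted unique reads per Ensembl gene with HTSeq, and removed cells with few gene reads, a high mitochondrial share or an outlying position. The deposited tables hold these counts for each cell, not normalized, and the authors' TPM, scaled for gene length and depth. Counting by strand is not given in the sources used here, so overlapping genes may share reads. Symbols came from a table covering 11437 identifiers and 75.3% of the counts. Here, counts were summed per embryo and label, since cells are not replicates, and tested in edgeR 4.0.16 (R 4.3.3; TMM, glmQLFit and glmQLFTest, Benjamini-Hochberg adjustment over all 14721 genes, threshold 0.05). The standard error is the log2 fold change divided by the square root of F. Intervals on shares of cells are exact 95% binomial intervals (Clopper-Pearson), and 0 cells allow up to 3 cells of the total. Python 3.11.15 with pandas, scipy and matplotlib made the tables and plots. Genes named were the members called (at most 12 in a comparison), the 15 with the smallest p over all 7 labels and the highest by TPM in each family; others are said to be outside this rule. The values of 1 gene under this rule are not reported here. Members and lists were chosen with earlier results of these data known.

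ICM and TE, or EPI and HYPO, shared embryos. Deviations of sums of the same embryo correlated with a median r of 0.07 (7 ICM and TE pairs), 0.02 (3 LB pairs) and 0.04 (3 Sph pairs) over 4391 genes, and the block entered as an alternative. On simulated counts with 200 genes changed 8-fold, edgeR recovered 33.5% in M and ICM against EPI with 8 false calls among 14658 genes. Over all 7 labels it recovered 31.5% with 286 false calls among 14721 genes, or 27.2% with 6 false calls among the 11104 genes with a simulated count in every label, which is why that adjustment was added after seeing the data. Alternatives were DESeq2 1.42.0, limma 3.58.1 on log2(TPM + 1), no TMM, no filter, filterByExpr, sums of at least 2 cells, without cells of less certain embryo, the unassigned M cell as an embryo, library sets 1 to 4 and 5 to 8 (by the leading number of the cell identifiers), all 7 labels in one model, the embryo block and each embryo left out.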

Additional observations from a re-analysis of the deposited data

Results flagged for a closer look

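In 85 groups of 4 to 10 embryos of the called genes, 16 held an embryo far from the others, at a rule that chance meets in about 1 in 20 groups. All values here are log2(CPM + 1).

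Among abundant genes, HDAC2 was 10.36 in LB HYPO embryo AP, above 9.33 to 9.62 in the others. PRMT1 was 9.23 in Sph EPI embryo E, below 10.31 to 10.39. TET1 was 2.31 in the same Sph EPI embryo, below 6.77 to 7.03, and 0.28 in LB HYPO embryo AN, below 5.91 to 8.19. KDM3A was 6.44 in M embryo V, below 8.16 to 9.30, and SMARCAD1 was 0.91 in M embryo Y, below 5.09 to 7.67.

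Among sparse genes, KDM4B was 4.53 in TE embryo AE with the others at 0, 2.31 in LB EPI embryo AQ and 3.67 in LB HYPO embryo AN. KMT2A was 4.31 in M embryo U and 4.85 in ICM embryo AE, with the other embryos of each label at 0. SMARCD3 was 2.15 in ICM embryo AC and 2.93 in LB EPI embryo AQ, and SMARCA1 was 2.14 in LB EPI embryo AO. KDM4C at 0.08 in LB EPI embryo AP and TET3 at 0.09 in Sph EPI embryo C rest on 1 and 2 counts.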

How the results depend on the processing

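No fold change or call turned its direction under any alternative. TET1, PRMT1 and HDAC2 were called in M and ICM against EPI under all 34 alternatives and over all 7 labels under all 38. Numbers of called members changed as follows, and the cause was not tested. Over all 7 labels the count of 11 became 18 with limma and 6 over genes with a count in every label, an adjustment chosen after seeing the data. In M and ICM against EPI the count of 10 became 18 with limma and 6 with all 7 labels in one model. In ICM against TE the count of 0 became 1 with limma and 2 in one model. In LB EPI against LB HYPO the count of 1 became 5 with DESeq2, 3 with limma, 2 with filterByExpr, and 0 with sums of at least 2 cells, in library sets 1 to 4 and in sets 5 to 8, in one model and with the embryo as a replicate block. In Sph EPI against Sph HYPO DESeq2 gave 3 in place of 0. In M against ICM the count of 2 became 7 with DESeq2, 4 with limma, 1 in library sets 1 to 4, 0 in sets 5 to 8 and 1 in one model. In ICM against LB EPI the count of 3 became 0 in library sets 1 to 4, 1 in sets 5 to 8 and 1 in one model. In LB EPI against Sph EPI the count of 1 became 6 with DESeq2 and 0 in library sets 1 to 4 and in sets 5 to 8 and in one model. For the difference between stages DESeq2 gave 3 in place of 0.

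The share of cells for the median member was 31.9% in M at TPM above 5, and in LB EPI 52% at TPM above 0 and 36% above 5.

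Leaving out each embryo in turn gave 9 to 13 over all 7 labels, 5 to 11 in M and ICM against EPI (5 without LB EPI embryo AQ), 0 to 0 in ICM against TE, 0 to 2 in LB EPI against LB HYPO, 0 to 6 in Sph EPI against Sph HYPO (6 without Sph HYPO embryo F), 2 to 3 in M against ICM, 1 to 3 in ICM against LB EPI, 0 to 1 in LB EPI against Sph EPI and 0 to 2 for the difference between stages (2 without Sph HYPO embryo F). The embryo block changed no other call named here. Over all 7 labels it could not be fitted because each embryo belongs to 1 stage. In simulated counts 1.5 to 33.5% of 8-fold changes were recovered, by comparison, so many changes of that size would not be called.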
